A study of Solea senegalensis with 15 samples.

Results

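Genes for 7 gonadal transcription factors were followed in the testis of the Senegalese sole, a flatfish, after treatment with recombinant gonadotropins. They were the rows of the count table with the symbols dmrt1, sox3, sox8, sox9, wt1, gata4, gata6 or any foxl2 (a and b copies included) that reached 50 counts in at least 1 fish. Of 28921 genes in the table, 8 carried such a symbol and 7 reached the minimum: dmrt1, sox9a, wt1b, gata4, gata6, foxl2a and foxl2l. The remaining one, sox3, was listed at 0 in all 15 fish. Of the 7, foxl2a reached 50 counts in 2 fish and the other 6 genes did so in all 15.

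All fish were males of 2 years, first-generation offspring of wild-caught parents, injected into the muscle once a week for 6 weeks. The 5 controls (saline) received the vehicle, 5 fish received single-chain recombinant sole follicle-stimulating hormone (rFsh) at 18 µg/kg and 5 received single-chain recombinant sole luteinizing hormone (rLh) at 18 µg/kg. Each library was made from the testis of 1 fish, named here by its group and the number in its label, and the fish were neither mutant nor transgenic as far as the labels say. The libraries held 50.7 to 109.8 M reads assigned to genes, with medians of 79.9 M in saline, 61.2 M in rFsh and 60.9 M in rLh. Levels are CPM, the counts scaled to a common library total with TMM factors, and they compare fish for 1 gene, not genes with each other. Testis tissue of mixed cell types was measured, so fewer cells of a type and less RNA per cell cannot be told apart. The study froze the left testis in small pieces, and the share of cortex and medulla in each sample is not stated.

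The testis and the ovary arise from the same primordium, and a small set of transcription factors directs the supporting cells towards Sertoli or granulosa cells. In mammals, GATA4 and WT1 act early in the gonad, SOX9 drives Sertoli cell differentiation, and DMRT1 keeps the adult testis from taking on ovarian features. FOXL2 holds the opposite side in the ovary, where it maintains granulosa cells, and in fish it is known as an activator of the aromatase gene cyp19a1a. Below, dmrt1, sox9a, wt1b, gata4 and gata6 are called testis-side factors. This is a short label only and does not mean that they act in the testis alone. Pituitary Fsh and Lh act on the supporting and steroid-producing cells, and the comparisons here ask whether their injection changed the RNA of these factors in a differentiated testis.

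None of the 7 factors passed the test between any pair of groups. The test was edgeR's quasi-likelihood test over all 15 fish, with Benjamini-Hochberg adjustment over the 21227 tested genes and a threshold of 0.05. For rFsh against saline 0 of 7 factors passed, where 0.0471% of all tested genes (10 genes) did. For rLh against saline it was 0 of 7 factors against 0% of all tested genes, and when the hormones were compared directly again 0 of 7 against 0%. At an unadjusted p under 0.05 the count of factors was also 0 in each comparison, while 3642, 2802 and 2103 of all tested genes met that limit. DESeq2 on the same fish called 0 of 7 in each comparison against 2.93%, 0.221% and 0.636% of all genes, and on 12 of the fish, 4 per group, it called 0 of 7 against 5.87%, 10.5% and 3.19%. DESeq2 gave no p for foxl2a in any of these comparisons, so its counts rest on 6 genes. The ranges of the groups overlapped for all 7 factors in all 3 comparisons, where 1.72%, 2.1% and 1.54% of tested genes had groups that did not overlap.

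On the testis side, dmrt1 encodes a DM-domain factor of Sertoli and germ cells that is needed to maintain the vertebrate testis (linkage group 5, 15189255 to 15221915, build IFAPA_SoseM_1). In saline fish its level was 220.1 CPM in fish 64, 241 in 67, 249.7 in 66, 291 in 68 and 303 in 63. In rFsh fish it was 246 in fish 64, 256 in 61, 257 in 69, 302 in 62 and 321 in 68. In rLh fish it was 267 in fish 64, 268 in 68, 271 in 66, 301 in 63 and 303 in 67. Saline 64 and saline 67 lay below every treated fish, but the upper ends of the 3 groups lay together. Mean levels were 261 ± 34.8 CPM in saline, 276 ± 33.0 in rFsh and 282 ± 18.6 in rLh (SD, n = 5 each). The log2 fold change was 0.083 ± 0.098 (SE) for rFsh against saline (edgeR adjusted p = 0.694) and 0.11 ± 0.098 for rLh against saline (edgeR adjusted p = 0.623). The 95% intervals allowed a ratio of 0.917 to 1.22 after rFsh and of 0.936 to 1.25 after rLh.

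The sox9a gene encodes an HMG-box factor whose mammalian counterpart activates the anti-Müllerian hormone gene in Sertoli cells (linkage group 18, 5033711 to 5038132). Its saline levels were 22.0 CPM in fish 64, 24.4 in 63, 25.1 in 66, 28.6 in 68 and 37.9 in 67. After rFsh they were 18.5 in fish 61, 20.3 in 68, 26.4 in 62, 33.9 in 64 and 35.3 in 69. After rLh they were 24.3 in fish 66, 28.1 in 63, 31.3 in 64, 34.9 in 68 and 35.8 in 67. Of the 5 testis-side factors sox9a had the widest range over the 15 fish, with a highest level 2.05 times the lowest, and the highest fish of the 3 groups lay between 35.3 and 37.9 CPM. The log2 fold change was -0.037 ± 0.19 for rFsh against saline, 0.16 ± 0.19 for rLh against saline and 0.20 ± 0.19 for rLh against rFsh. The 95% intervals allowed a ratio of 0.738 to 1.29 after rFsh and of 0.848 to 1.48 after rLh.

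The wt1b gene is one of the teleost copies of WT1, a zinc-finger factor of the gonad and kidney that maintains Sertoli cells in mammals (linkage group 7, 24411615 to 24418917). It was measured at 85.7 CPM in saline fish 64, 108 in 68, 122 in 67, 123 in 63 and 136 in 66. The rFsh fish had 93.4 in fish 64, 103 in 69, 106 in 61, 110.2 in 68 and 112 in 62. The rLh fish had 103 in fish 66, 109.7 in 68, 118 in 63, 120.3 in 64 and 123 in 67. The rFsh fish lay in the lower part of the saline range, and none of them reached the level of 3 saline fish. The mean was 105 ± 7.25 CPM in rFsh against 115 ± 19.2 in saline and 115 ± 8.24 in rLh (SD, n = 5 each). For rFsh against saline the log2 fold change was -0.13 ± 0.10 (95% interval -0.35 to 0.085, edgeR adjusted p = 0.523), and for rLh against rFsh it was 0.13 ± 0.10 (-0.087 to 0.35, edgeR adjusted p = 0.668). Against saline the value for rLh was -0.00088 ± 0.10.

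Zinc-finger factors of the GATA family, gata4 (linkage group 17, 10304240 to 10313220) and gata6 (linkage group 1, 15888268 to 15893548), act in Sertoli and Leydig cells of mammals and bind promoters of steroidogenic genes. In saline fish gata4 was at 17.7 CPM in fish 68, 22.4 in 64, 24.8 in 63, 29.2 in 67 and 31.4 in 66. In rFsh fish gata4 ran from 20.6 in fish 62 to 27.7 in 68 with a median of 25.8, and in rLh fish from 22.4 in fish 66 to 27.8 in 64 with a median of 26.3. Both treated groups lay inside the saline range. The span of gata4 shares 6 bases with the neighbouring LOC122784066, which had 22 to 81 counts per fish against 1089 or more for gata4. For gata6 the saline levels were 19.7 CPM in fish 64, 21.9 in 66, 24.7 in 67, 27.3 in 63 and 29.2 in 68. The rFsh levels of gata6 ran from 19.3 in fish 62 to 27.6 in 68 with a median of 22.3, and the rLh levels from 21.9 in fish 68 to 29.4 in 67 with a median of 25.1. The 3 ranges of gata6 covered nearly the same interval. Log2 fold changes against saline were -0.045 ± 0.14 after rFsh and 0.031 ± 0.14 after rLh for gata4, and -0.060 ± 0.12 and 0.045 ± 0.12 for gata6. The 95% intervals of these ratios reached from 0.791 to 1.25 for gata4 and from 0.800 to 1.24 for gata6.

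**Figure D1:**
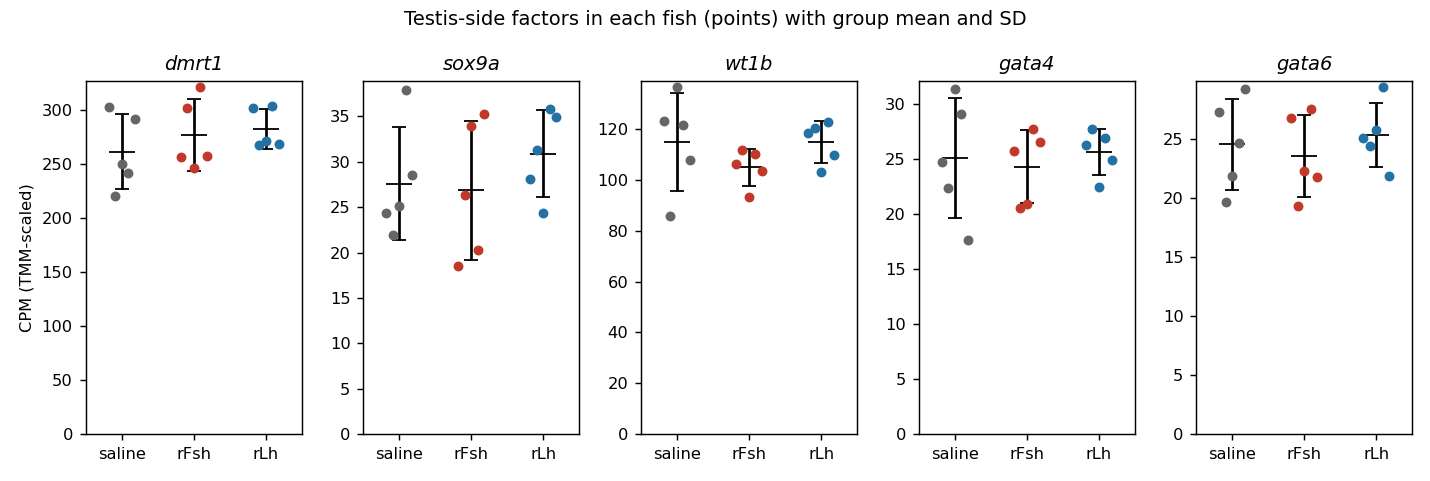
Level of dmrt1, sox9a, wt1b, gata4 and gata6 in each fish (CPM with TMM factors, linear axes from 0, one panel per gene), with points for single fish and bars for the group mean and SD (n = 5). The points of the 3 groups overlap in every panel, and sox9a shows the widest scatter, from 18.5 to 37.9 CPM.

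Since no pair of groups passed for any testis-side factor, the order of their mean levels could not be told. For sox9a the means were 27.6 ± 6.25 CPM in saline, 26.9 ± 7.66 in rFsh and 30.9 ± 4.78 in rLh (SD, n = 5 each). For gata4 they were 25.1 ± 5.46, 24.3 ± 3.32 and 25.7 ± 2.09, and for gata6 24.6 ± 3.87, 23.6 ± 3.51 and 25.3 ± 2.71, in the same order of groups. The SD in rLh was below that in saline for all 5 factors, a difference that was not tested. The share of all tested genes with this order was not counted, so it cannot be read as a trait of these factors. In its principal component analysis the paper describes the saline fish as more dispersed than either hormone group. When the hormones were compared directly, the log2 fold change (rLh minus rFsh) was 0.029 ± 0.098 for dmrt1, 0.076 ± 0.14 for gata4 and 0.10 ± 0.12 for gata6.

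**Figure D2:**
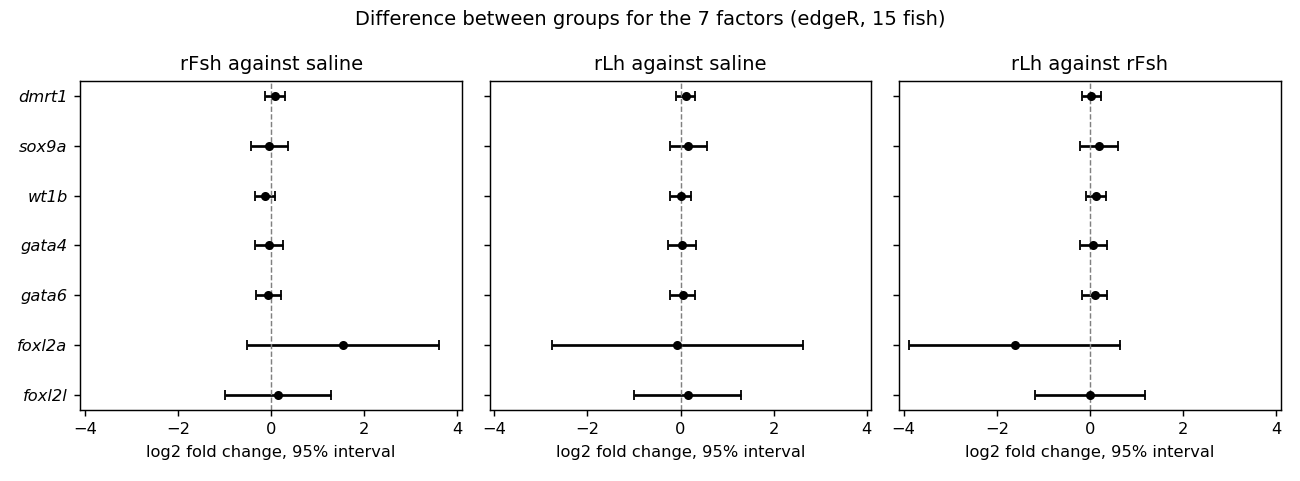
Log2 fold change of each of the 7 factors (horizontal axis, points) with its 95% interval (bars) from edgeR over 15 fish, with one panel for each pair of groups. All 21 intervals include 0, and those of foxl2a and foxl2l are wider than those of the 5 testis-side factors.

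On the ovarian side, the forkhead genes foxl2a and foxl2l gave few reads in most testes and varied most between fish. In mouse, FOXL2 is needed to keep granulosa cells from turning into Sertoli-like cells. In zebrafish, foxl2l marks germ cells on the way to becoming oocytes. The foxl2a gene lies on an unplaced sequence of the assembly, at 72881 to 74881, and foxl2l on linkage group 11 at 13357345 to 13358698. The span of foxl2l overlaps no other gene. For foxl2a overlap was not tested, as its sequence is unplaced.

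In saline testes foxl2a was at 0.0751 CPM in fish 68 (6 counts), 0.126 in 63 (12 counts), 0.169 in 67 (13 counts), 0.390 in 66 (41 counts) and 0.884 in 64 (61 counts). In rFsh testes it was at 0.0663 CPM in fish 64 (4 counts), 0.0929 in 61 (7 counts), 0.0946 in 62 (5 counts), 0.127 in 68 (7 counts) and 3.84 in 69 (268 counts). In rLh testes it was at 0.216 CPM in fish 63 (13 counts), 0.264 in 68 (14 counts), 0.273 in 66 (18 counts), 0.344 in 64 (21 counts) and 0.387 in 67 (24 counts). One fish, rFsh 69, thus stood 30.3-fold above the next rFsh fish and above all 14 other fish. Its exact 95% binomial interval, 3.4 to 4.3 CPM, did not meet that of any other fish, although such intervals cover counting error only. The foxl2a gene entered the test only through rFsh 69 and saline 64, the fish with 50 counts or more.

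The foxl2l gene followed the same order at the top. Its saline levels were 1.14 CPM in fish 68, 1.76 in 63, 1.76 in 67, 3.11 in 66 and 4.48 in 64. Its rFsh levels were 0.783 in fish 61, 0.945 in 64, 1.45 in 68, 1.67 in 62 and 8.21 in 69. Its rLh levels were 2.39 in fish 64, 2.39 in 67, 2.44 in 63, 2.98 in 68 and 3.26 in 66. Again rFsh 69 was the highest of the 15 fish and saline 64 the next, and the other 4 rFsh fish lay below all 5 rLh fish. With rFsh 69 the rFsh and rLh groups overlapped. The share of all genes separated in this way without that fish was not counted.

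**Figure D3:**
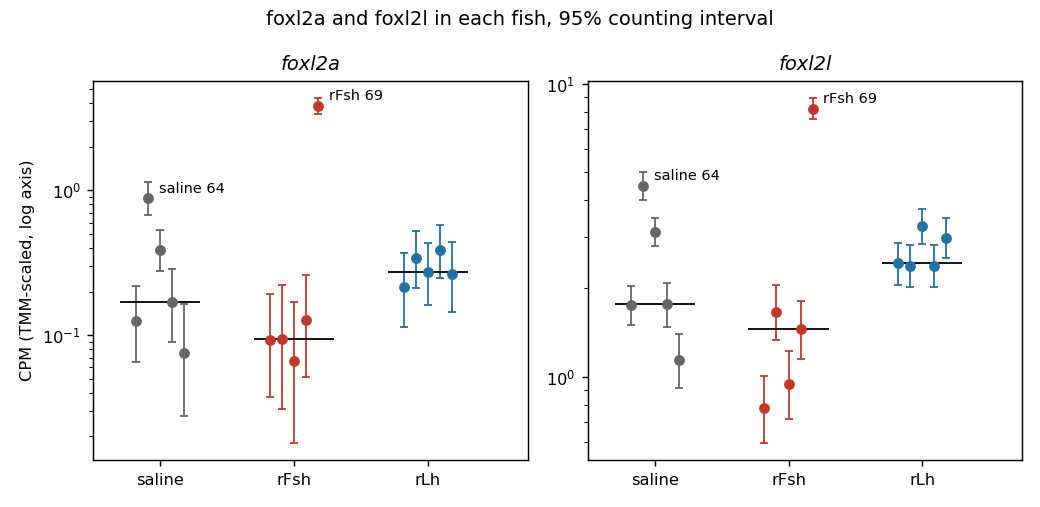
Level of foxl2a and foxl2l in each fish (CPM with TMM factors, log axes), with bars for the exact 95% binomial counting interval of each library and a black line at the group median. In both panels rFsh 69 is the highest point (3.84 and 8.21 CPM) and saline 64 the second. The other 4 rFsh fish lie below the 5 rLh fish, while with rFsh 69 these groups overlap. That fish was singled out by its own foxl2a level, and how many of all genes separate without it was not counted.

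The group comparisons of both genes rested on rFsh 69. With all 15 fish, foxl2a had a log2 fold change of 1.54 ± 0.97 for rFsh against saline (95% interval -0.52 to 3.60, edgeR adjusted p = 0.426) and of -1.61 ± 1.06 for rLh against rFsh (-3.88 to 0.65, edgeR adjusted p = 0.612). Without rFsh 69 these became -1.71 ± 0.69 (edgeR adjusted p = 0.148) and 1.65 ± 0.73 (edgeR adjusted p = 0.258). The direction thus turned in both comparisons. For foxl2l the value for rFsh against saline went from 0.15 ± 0.54 (edgeR adjusted p = 0.913) to -1.05 ± 0.38 (edgeR adjusted p = 0.120) without that fish. For rLh against rFsh it went from 0.0033 ± 0.56 (edgeR adjusted p = 0.999) to 1.20 ± 0.39 (edgeR adjusted p = 0.137). Neither gene passed the threshold with or without rFsh 69, although without it both had an unadjusted edgeR p under 0.05 in each of these comparisons. Of the 21166 genes tested without rFsh 69, 4985 for rFsh against saline and 3659 for rLh against rFsh also had such an unadjusted p. By adjusted p, 4.72% of them passed for rFsh against saline and 0.0945% for rLh against rFsh. The fish was singled out by its own foxl2a level, so the values without it are not independent of that choice.

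For rLh against saline the log2 fold change in the fit over 15 fish was -0.072 ± 1.27 for foxl2a (95% interval -2.77 to 2.62) and 0.15 ± 0.54 for foxl2l (-1.01 to 1.30). These intervals hold a ratio of 0.147 to 6.16 for foxl2a and of 0.498 to 2.47 for foxl2l. All 3 groups share 1 estimate of the spread in that fit, so rFsh 69 widens the intervals of a comparison it is not in. Without rFsh 69 the values were -0.066 ± 0.48 (95% interval -1.08 to 0.95, a ratio of 0.472 to 1.94) for foxl2a and 0.16 ± 0.30 (-0.50 to 0.81, a ratio of 0.709 to 1.75) for foxl2l. With the saline and rLh fish alone they were -0.077 ± 0.57 (a ratio of 0.396 to 2.27) and 0.14 ± 0.32 (a ratio of 0.677 to 1.80). The coefficient of variation in rLh was 23.0% for foxl2a and 15.1% for foxl2l, against 101% and 54.8% in saline and 198% and 121% in rFsh. In the 4 rFsh fish other than rFsh 69 it was 26.1% for foxl2a and 34.3% for foxl2l. Counts of foxl2a were 4 to 7 in those 4 fish and 13 to 24 in rLh. Counting error was not separated from these values, so they do not compare the spread between fish. These differences in spread were not tested.

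In rFsh 69 the testis-side factors did not stand out. Its dmrt1, sox9a, wt1b, gata4 and gata6 levels (257, 35.3, 103, 26.6 and 21.8 CPM) all lay within the range of the other 14 fish. By the log2 difference from the mean of the other 4 rFsh fish, foxl2a ranked 4 and foxl2l ranked 34 from the top among the 21227 tested genes, with differences of 4.99 and 2.79. Because the fish was singled out by its foxl2a level, a high rank of foxl2a follows from that choice. The rank of foxl2l is not independent of it, as the 2 genes vary together between fish. Above foxl2a stood LOC122765472 (rank 1), rxfp1 (rank 2) and zgc:153896 (rank 3). The relaxin receptor gene rxfp1 was at 118 CPM in rFsh 69 and at 0.995 to 6.88 CPM in the other 4 rFsh fish. Over all the other 14 fish it reached 153 CPM, so its level in rFsh 69 was not the highest of the series. Next to foxl2a, at rank 5, stood hsd17b1, an enzyme gene of estradiol synthesis in the ovary of vertebrates, which was picked out after its values were seen. It had 155 counts (2.22 CPM) in rFsh 69 and 46 counts (0.437 CPM) or fewer in every other fish. No gene with the symbol cyp19a1, cyp19a1a or cyp19a1b was among the tested genes. In saline 64, second in both foxl2 genes, dmrt1 (220.1 CPM) and wt1b (85.7) were the lowest of the 15 fish. Its sox9a (22.0) and gata6 (19.7) were the lowest of saline, while its gata4 (22.4) was not. This fish too was picked by its foxl2 levels. With group means subtracted, foxl2a had r = -0.41 with dmrt1 (adjusted permutation p = 0.422) and -0.18 with wt1b (adjusted permutation p = 0.640) over 15 fish.

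Markers of other cell types were read beside these values. For the ovarian follicle, 5 of 9 listed markers were in the table and all 5 were detected (zp3b, zar1, gdf9, bmp15 and figla, genes of oocytes and their envelope), with none of them at 0. Their summed level in rFsh 69 was 22.3 CPM, within the range of its group (13.7 to 28.3) and of the saline (15.4 to 25.5) and rLh (19.0 to 29.2) fish. For Sertoli cells, 6 of 8 markers in the table were detected, and rFsh 69 had the highest sum of its group, 3696 CPM against 2294 to 2936 in the other 4. That sum is mostly gsdf, a gonadal growth factor gene of fish (mean level 1946 CPM over the 15 fish). The mean log2 CPM over the 6 markers was 8.12 in rFsh 69 against 7.72 to 8.09 in the other 4, and amh in rFsh 69 (122 CPM) was the second lowest of the group. For Leydig cells all 4 markers in the table were detected, and rFsh 69 had the lowest sum of the 15 fish, 610 CPM. The sum in saline 67 was close to it, at 625 CPM. By the mean log2 CPM of the 4 markers saline 67 was lower, at 6.66 against 6.76 in rFsh 69. The red blood cell sum was also lowest in rFsh 69, at 4.49 CPM from 2 of 3 markers. The spermatocyte sum of rFsh 69, 1152 CPM, was the lowest of the rFsh group. The part of these differences in the foxl2a and foxl2l levels was not tested. The labelled tissue was checked against germ cell markers, of which 13 of 13 for spermatogonia, 11 of 12 for spermatocytes and 10 of 11 for spermatids were detected. Spermatogonia sums were 1133 to 1578 CPM in saline, 1191 to 1711 in rFsh and 1168 to 1880 in rLh. Those of rFsh 69 (1518) and saline 64 (1494) lay inside these ranges. By the mean log2 CPM of the 13 markers, rFsh 69 (4.58) and saline 64 (4.57) were the highest of the 15 fish. The value in rLh 64 was close, at 4.53. Whether this goes with their foxl2a and foxl2l levels was not tested. The summed level of the spermatocyte markers was 951 to 1100 CPM in saline, 1152 to 1444 in rFsh and 1087 to 1285 in rLh. By that sum every rFsh fish lay above every saline fish. By the mean log2 CPM of the detected markers the groups overlapped, with rFsh 69 at 6.21 and saline 63 at 6.23. Of single tested genes, 1.72% had rFsh and saline groups that did not overlap. Spermatid sums overlapped, at 146 to 269.8 CPM in saline, 170.2 to 269 in rFsh and 193 to 299.8 in rLh. The part of differences in germ cell marker levels in the levels of the 7 factors was not tested.

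Variation between fish of one group was then compared with that of all tested genes, as the SD of log2 CPM (prior count 2) around the group means. The median of all tested genes was 0.24. The SD was 0.16 for dmrt1, 0.17 for wt1b, 0.20 for gata6 and 0.23 for gata4, below that median, and 0.33 for sox9a, above it. Of all tested genes, 26.5%, 30.7%, 40.2%, 47.9% and 67% had an SD no larger than that of dmrt1, wt1b, gata6, gata4 and sox9a. For foxl2l the SD was 0.89 (97.4%) and for foxl2a 1.49 (99.6%). Without rFsh 69 they were 0.54 (90.4%) and 0.79 (96.5%). Genes with few counts vary more on this scale, as the plot of SD against level shows, and both of these genes had few counts.

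**Figure D4:**
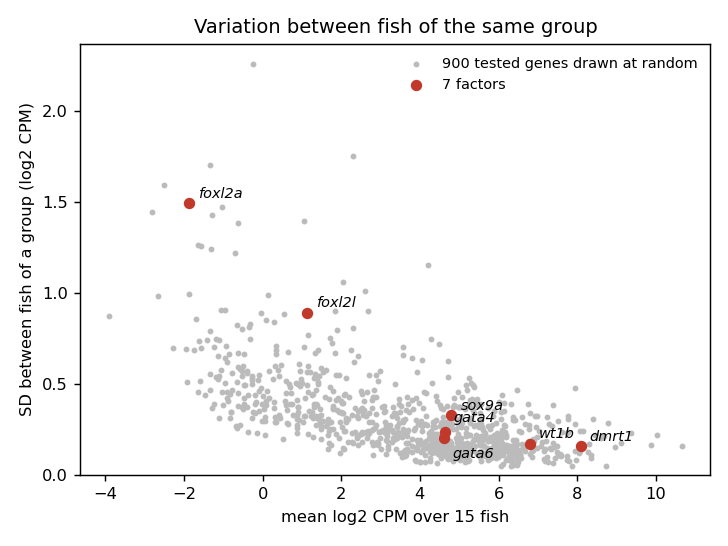
SD between fish of the same group (log2 CPM, vertical axis) against the mean log2 CPM over 15 fish (horizontal axis) for the 7 factors (red) and 900 other tested genes drawn at random (grey). The spread grows towards low levels, foxl2a (1.49) and foxl2l (0.89) lie at the upper edge of the cloud, and dmrt1 and wt1b (0.16 and 0.17) lie within it.

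How the factors varied with each other was measured over the 15 fish on log2 CPM after the group means were subtracted, for all 21 pairs. Only foxl2a and foxl2l passed (Pearson r = 0.944, permutation p = 1e-05, the smallest that 100000 resamples can give, adjusted p = 0.00021 over 21 pairs). Spearman's rho was 0.839 (permutation p = 8e-05, adjusted p = 0.00168). Leaving out the 2 fish farthest from the median of foxl2a, rFsh 69 and saline 64, gave r = 0.782, and leaving out rFsh 69 alone gave r = 0.828 (adjusted permutation p = 0.00945). The fish with the most foxl2a also had the most foxl2l in saline (64) and in rFsh (69), while in rLh these were fish 67 and fish 66. The resamples shuffled all 15 fish across groups, although both genes varied less in rLh than in saline or rFsh. The permutation p does not allow for this, and no r was computed within rLh alone. Whether reads are shared between the 2 genes was not tested.

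**Figure D5:**
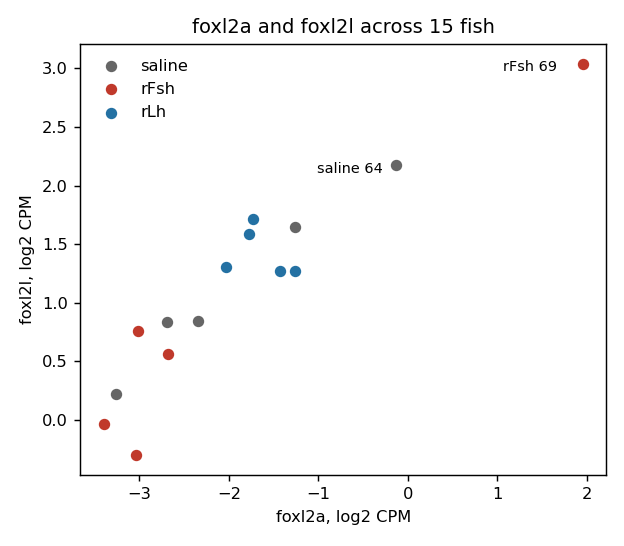
foxl2l against foxl2a in each of 15 fish (log2 CPM with prior count 2, group means not subtracted), coloured by group. The points rise together from a low end, which holds saline 68 among the 4 other rFsh fish, to saline 64 and rFsh 69. After the group means were subtracted, r was 0.944 over 15 fish.

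No pair among the 5 testis-side factors passed with all 15 fish. The highest values were r = 0.597 for wt1b with gata4 (permutation p = 0.0199, adjusted p = 0.173), 0.565 for dmrt1 with gata6 (permutation p = 0.0304, adjusted p = 0.173) and 0.507 for dmrt1 with wt1b (permutation p = 0.0509, adjusted p = 0.214). Spearman's rho was 0.579 (permutation p = 0.0265, adjusted p = 0.185), 0.493 (permutation p = 0.0656, adjusted p = 0.276) and 0.5 (permutation p = 0.0611, adjusted p = 0.276), and without the 2 fish farthest from the median r was 0.578, 0.415 and 0.469. These calls depended on single fish. Without saline 64, saline 68 or rFsh 62 the wt1b and gata4 pair passed (r = 0.718, 0.677 and 0.697, adjusted permutation p = 0.0424, 0.0430 and 0.0493), and without rFsh 62 so did dmrt1 with gata6 (r = 0.792, adjusted permutation p = 0.00871). Across the sides, gata6 and foxl2l had r = -0.54 (permutation p = 0.0330, adjusted p = 0.173) and rho = -0.67 (permutation p = 0.00786, adjusted p = 0.0825). Without saline 64 and saline 68, the fish farthest from the median of gata6, r was -0.38. The pair passed without rFsh 69 (r = -0.71, adjusted permutation p = 0.0425). The other factor pairs with sox9a reached r values between -0.18 and 0.22.

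Partners and targets of these factors were read from 4 lists of symbols. The median log2 fold change of all tested genes was 0.0060 for rFsh against saline and 0.0087 for rLh against saline. Of all 21227 tested genes, 3642 for rFsh against saline, 2802 for rLh against saline and 2103 for rLh against rFsh had an unadjusted edgeR p under 0.05. Of cofactors and upstream regulators, 15 of 17 genes in the table were tested, and by edgeR and by DESeq2 0 passed in any comparison. At an unadjusted edgeR p under 0.05 there were 1 after rFsh, 1 after rLh and 3 between the hormones. Their median log2 fold change was -0.019 for rFsh and -0.0025 for rLh against saline. The smallest p after rFsh was that of kdm3b, a histone demethylase gene, at -0.21 ± 0.099 (edgeR adjusted p = 0.291), and then that of six4a, a homeobox gene, at 0.64 ± 0.32 (edgeR adjusted p = 0.320). After rLh they were zfpm2a, one of the fish copies of the GATA4 partner FOG2, at -0.35 ± 0.16 (edgeR adjusted p = 0.374) and cbx2, a Polycomb gene needed for testis formation in mouse, at 0.23 ± 0.11 (edgeR adjusted p = 0.381).

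Among signals that pass between gonadal cells, the anti-Müllerian hormone gene amh, which SOX9, WT1 and GATA4 regulate in mammals, had the smallest p of all listed genes. In saline it was at 139 CPM in fish 64, 162 in 68, 184 in 63, 197 in 67 and 216 in 66. In rFsh it was at 104 in fish 64, 122 in 69, 125 in 68, 142 in 62 and 151 in 61. In rLh it was at 143 in fish 66, 168 in 67, 175 in 64, 185 in 63 and 205 in 68. Of the 5 rFsh fish, 3 lay below every saline fish and 2 lay inside the saline range. The mean was 129 ± 18.3 CPM in rFsh against 179.6 ± 29.8 in saline and 175 ± 22.5 in rLh (SD, n = 5 each). Its log2 fold change for rFsh against saline, -0.48 ± 0.13, did not pass by edgeR (adjusted p = 0.124) and passed by DESeq2 (-0.49 ± 0.14, adjusted p = 0.0244). For rLh against rFsh it was 0.44 ± 0.13 (edgeR adjusted p = 0.392, DESeq2 adjusted p = 0.0961).

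Counting all such signals, 19 of the 21 genes present were tested, 0 passed by edgeR in any comparison, and DESeq2 called amh alone, lower after rFsh, where it called 2.93% of all genes. At an unadjusted edgeR p under 0.05 there were 5 for rFsh against saline (2 higher, 3 lower), 1 for rLh against saline (lower) and 5 for rLh against rFsh (3 higher, 2 lower). Among all 21227 tested genes, 3642, 2802 and 2103 met that limit in the same order of comparisons. The median log2 fold change against saline was 0.037 for rFsh and 0.052 for rLh. The other gene named for rFsh, wnt4, a ligand of ovarian differentiation in mammals, had -0.61 ± 0.21 (edgeR adjusted p = 0.182). For rLh against saline they were wnt4b at -0.76 ± 0.26 (edgeR adjusted p = 0.344) and the androgen receptor gene ar at 0.41 ± 0.21 (edgeR adjusted p = 0.408).

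Of genes of the ovarian side, 9 of 10 present were tested and 0 passed by edgeR or DESeq2, with 0, 1 and 1 at an unadjusted edgeR p under 0.05 after rFsh, after rLh and between the hormones. Their median log2 fold change was -0.058 for rFsh and 0.18 for rLh against saline. Those with the smallest p were runx1 (0.23 ± 0.13) and gdf9 (0.36 ± 0.23) for rFsh, and runx1 (0.36 ± 0.13, edgeR adjusted p = 0.344) and bmp15 (0.30 ± 0.19) for rLh. In mouse, RUNX1 works beside FOXL2 in the fetal ovary, and GDF9 and BMP15 are growth factors of the oocyte. Of other dmrt, sox, gata and foxl genes, 24 of 28 present were tested and 0 passed by edgeR or DESeq2, with 1, 2 and 0 at an unadjusted edgeR p under 0.05 and a median of 0.021 for rFsh and 0.10 for rLh against saline. The smallest p-values were those of sox10 (0.47 ± 0.21, edgeR adjusted p = 0.276) and sox14 (-0.57 ± 0.27, edgeR adjusted p = 0.299) for rFsh, and of dmrt2b (0.54 ± 0.22, edgeR adjusted p = 0.352) and sox14 (-0.71 ± 0.28, edgeR adjusted p = 0.352) for rLh.

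The value of 0 for sox3 cannot be read as absence of its RNA. The span of sox3 (linkage group 12, 9326395 to 9329632), a gene of the same family as the mammalian testis-determining gene, lies inside that of LOC122778602, which had 399 to 1387 counts. All 719 protein-coding genes whose span lies inside that of another protein-coding gene were at 0 in all 15 fish, against 126 of 20342 other protein-coding genes (0.619%). This tally was made after the value of sox3 was seen. The same holds for the Sertoli cell marker dhh (inside samd11) and for the spermatocyte marker sycp3 (inside chmp1a), so the lists above were read without them. The sox2 and sox32 genes were at 0 without such an overlap.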

How the data were processed

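Testis RNA of 15 fish (saline, rFsh and rLh, 5 each) was analysed. The authors trimmed the read pairs of modified SMARTseq2 libraries with cutadapt 3.4, checked them with FastQC 0.11.9, aligned them with Subread 2.0.1 and assigned them to genes with RSubread in R 4.0.4, with build IFAPA_SoseM_1. The deposited values are whole-number counts per gene, not normalised, and hold no molecular identifiers. The study's methods give default parameters for this assignment, under which strand is not used and a read that falls in more than 1 gene is left uncounted, so reads of overlapping genes may be lost. The methods and labels speak of 4 libraries per group, where 5 were used here. The 12 fish of the alternative leave out rFsh 62, rLh 68 and saline 68, the only one of 125 choices whose mean counts match those in the study's supplementary tables. The labels give no sequencing batch.

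Genes with 50 counts in at least 1 fish (21227) were fitted with edgeR 4.0.16 in R 4.3.3 (TMM factors, quasi-likelihood test, robust off, 3 groups in 1 fit, two-sided) and adjusted by Benjamini-Hochberg at 0.05. The SE is the log2 fold change divided by the root of F. The form of the quasi-likelihood fit was not fixed in advance: older forms were tried first and called 1 gene for rFsh against saline, the current form called 10, and the current form was then used with these counts known. DESeq2 1.42.0 was an alternative, as were upper quartile factors and DESeq2 size factors in edgeR, no filter, filterByExpr, a block for the fish number, robust estimation, the compared groups alone, the 12 fish and leaving out each fish. The older form and leaving out fish from the correlations were added after seeing the data. At 50.7 to 109.8 M reads per fish, a floor of 3 counts is 0.0273 to 0.0591 CPM. Permutations, tables and figures were made in Python 3.11.15 with scipy 1.17.1, numpy 2.4.6, matplotlib 3.10.9 and pandas 2.3.3. The fits were tested on simulated data.

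All genes the rule found were named, with the genes of each list that passed or, with none, the 2 with the smallest p against saline. The factors and lists were chosen with earlier results of these data known. Gene positions come from RefSeq.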

Additional observations from a re-analysis of the deposited data

Results flagged for a closer look

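Each group of 5 fish was scanned for a highest or lowest fish separated from the rest by more than 0.71 of the range of the group (Dixon's 95% critical value), over 7 factors and 3 groups. The scan was made on CPM. Of these 21 groups 2 had such a fish, and chance gives about 1 in 20 where values are normally distributed. Both were rFsh 69, at 3.84 CPM for foxl2a against 0.0663 to 0.127 in the other 4 rFsh fish, and at 8.21 CPM for foxl2l against 0.783 to 1.67. On log2 CPM, which was not scanned, foxl2l was 3.04 in rFsh 69 and -0.30 to 0.76 in the other 4. That gap is under 0.71 of the range, so the flag of foxl2l depends on the scale. As these 2 genes vary together between fish, they are not separate evidence.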

How the results depend on the processing

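Under 26 alternatives (11 settings and 15 fish left out in turn), 0 of 7 factors passed in any comparison, and the smallest adjusted p was 0.120 (foxl2l, rFsh against saline, edgeR without rFsh 69). Of 546 log2 fold changes 55 turned sign, none of them called. The labels do not say whether fish with 1 number are related. Same-numbered fish correlated between -0.25 and 0.48, which does not settle whether they are. With the fish number as a replicate block, which for rFsh rests on the shared numbers 64 and 68, the values that turned were 0.078 (sox9a), 0.082 (wt1b), 0.28 (gata4), 0.049 (gata6), -2.30 (foxl2a) and -1.12 (foxl2l) for rFsh against saline, 0.010 (wt1b) for rLh against saline, and -0.055 (dmrt1), -0.081 (gata6) and 1.68 (foxl2a) for rLh against rFsh, and called genes went from 10, 0 and 0 to 0, 1 and 3. With upper quartile factors wt1b was 0.0071 for rLh against saline. With the 12 fish gata6 was 0.073 (edgeR) and 0.073 (DESeq2) for rFsh against saline, edgeR gave 0.0015 (wt1b), -0.053 (gata4) and -0.049 (foxl2l) and DESeq2 -0.064 (gata4) and -0.088 (foxl2l) for rLh against saline, and foxl2l was -0.14 (edgeR) and -0.12 (DESeq2) for rLh against rFsh. Without single fish the values ranged from -0.16 to 0.10 (sox9a), -0.22 to -0.065 (wt1b), -0.15 to 0.049 (gata4), -0.13 to 0.010 (gata6), -1.71 to 2.18 (foxl2a) and -1.05 to 0.43 (foxl2l) for rFsh against saline, from -0.089 to 0.066 (wt1b), -0.071 to 0.13 (gata4), -0.023 to 0.11 (gata6), -0.31 to 0.57 (foxl2a) and -0.023 to 0.44 (foxl2l) for rLh against saline, and from -0.010 to 0.089 (dmrt1), 0.045 to 0.17 (gata6), -1.95 to 1.65 (foxl2a) and -0.26 to 1.20 (foxl2l) for rLh against rFsh. The cause was not tested for any of these. The number of correlated pairs ran from 1 to 3 without single fish, with 3 without rFsh 62 and 2 without rFsh 69, saline 64 or saline 68. Over all genes, the count called by edgeR for rFsh against saline was 10 with all fish, 633 without saline 68, 998 without rFsh 69 and 1 to 20 without any other. Depth limits foxl2a most, with 4 to 61 counts outside rFsh 69.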
